A study of Mus musculus with 12 samples.

Results

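The miR-146 family was followed through 3 of the 517 miRNA assays that gave values: mmu-miR-146a, mmu-miR-146b and mmu-miR-146b*. They were taken by name, but with earlier results of these data known, so the choice was not made blind to these data. They comprise the guide strands of both mouse miR-146 genes and the passenger strand of the miR-146b gene. Older nomenclature marks the passenger strand with a star. The RNA came from 6 partially ligated left carotid arteries and 6 untreated right carotid arteries of female apoE-/- mice, which lack apolipoprotein E and are prone to atherosclerosis. Partial ligation closes most branches that drain the common carotid artery, so that flow through it is low and disturbed. Both arteries of an animal shared the knockout and a fatty chow eaten for 6 weeks after surgery, of which fat made up 21%, casein 19.5% and cholesterol 0.15%, and the stated age was 6 to 8 weeks. The series text counts 6 mice, so the untreated artery is the opposite vessel of an operated animal and not the artery of an unoperated one, and the samples are whole vessels that hold several cell types.

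NF-kB is a transcription factor that switches on inflammatory genes when Toll-like or interleukin-1 receptors are engaged. The miR-146a gene is one of its targets, and both miR-146 guide strands repress TRAF6 and IRAK1, proteins that carry the signal from those receptors to NF-kB, so the family is known as a negative feedback on the pathway. In the vessel wall it has been studied in endothelial cells, macrophages and smooth muscle cells.

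The mature strands are printed because the 2 guide strands are so alike and because each assay reads a single strand. All 3 were matched in RefSeq (assembly GRCm38.p6), where miR-146b* is called miR-146b-3p. Sequences run 5′ to 3′, with the seed, bases 2 to 8, in capitals.
miR-146a: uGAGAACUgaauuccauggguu
miR-146b: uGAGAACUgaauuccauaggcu
miR-146b*: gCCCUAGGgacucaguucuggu
miR-146a lies on the minus strand at chr11:43374435-43374456, in the miRNA gene Mir146. miR-146b lies at chr19:46342790-46342811 and miR-146b* at chr19:46342828-46342849, both on the plus strand in the miRNA gene Mir146b. The guide strands share 20 of 22 bases and differ by G18A and U21C, with the miR-146a base first and positions counted from 1 at the 5′ end. Their seed, GAGAACU, was held by these 2 alone among 1679 mature mouse miRNA names in the RefSeq table, and the seed of miR-146b* by that strand alone. With both differences outside the seed, whether one assay also reads the other guide strand was not tested. The Mir146b hairpin (chr19:46342762-46342870, plus strand, 109 bases) is shown with both measured strands in capitals, bases 29 to 50 and 67 to 88, since the values of these 2 strands are set side by side further on.
Mir146b: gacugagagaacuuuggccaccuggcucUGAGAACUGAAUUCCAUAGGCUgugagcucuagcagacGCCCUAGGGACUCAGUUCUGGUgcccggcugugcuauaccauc

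Each value began as a threshold cycle (Ct), the PCR cycle at which an assay's signal crosses a threshold: a lower Ct means more RNA, 1 cycle stands for a doubling, and 40 marks a well that did not amplify. A log2 level is minus the Ct after subtracting a mean Ct of the same sample, that of the 283 miRNAs detected in all 12 samples for the main run and that of 4 control RNAs for the separate run that holds miR-146b. Between 330 and 357 assays were detected (Ct below 35) in ligated arteries and between 317 and 341 in untreated arteries, and 339 of 513 were detected often enough to be tested in the main run. Samples numbered 1 to 3 stood apart from those numbered 4 to 6: the mean Ct of the 283 miRNAs lay between 23.3 and 24.2 in ligated 1 to 3 and between 24.4 and 25.0 in untreated 1 to 3, and between 25.0 and 25.2 in ligated 4 to 6 and between 25.7 and 26.4 in untreated 4 to 6. No label explains these 2 sets, so values within each are given as well. Vessel wall markers were present in both groups: the smooth muscle miRNA miR-145 averaged a log2 level of 9.12 in ligated and 11.5 in untreated arteries and the endothelial miRNA miR-126-3p 7.48 in ligated and 7.48 in untreated arteries.

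All 3 strands were higher in ligated than in untreated arteries. miR-146a was 3.13-fold higher in the main run and miR-146b 7.05-fold higher in the separate run, each by the reference of its own run. No ligated sample overlapped an untreated one for either. miR-146b* was detected in all 6 ligated arteries but in only 2 of 6 untreated arteries. Across the main run 25 of 339 tested assays, or 7.37%, were higher by the same test, and 42, or 12.4%, changed in either direction. All ligated levels lay above all untreated levels in 4.72% of the tested assays, miR-146a and miR-146b* among them. miR-146b* was tested only because it was detected often enough in its ligated arteries. Its undetected untreated wells were set to the detection limit, so its lack of overlap was partly fixed beforehand and is no support.

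miR-146a, the guide strand transcribed from Mir146, had Ct values of 17.7, 17.5, 16.4, 19.8, 20.0 and 19.2 in ligated arteries 1 to 6, against 20.6, 19.9, 20.2, 22.3, 21.4 and 22.0 in untreated arteries 1 to 6. After scaling, its log2 levels were 5.65, 6.69, 7.68, 5.44, 5.05 and 5.76 in ligated arteries, and 4.40, 4.54, 4.82, 4.17, 4.25 and 4.20 in untreated arteries. Ligated 3 was the highest sample and ligated 5 the lowest of its group, yet still above untreated 3, the highest untreated artery. The mean was 6.04 ± 0.97 in ligated and 4.40 ± 0.25 in untreated arteries (SD, n = 6 each), so the ligated samples were the more scattered. The log2 fold change was 1.65 ± 0.40 (SE; 95% confidence interval 0.77 to 2.52; limma, adjusted p = 0.0200), which ranked 30 of 339 from the top, between miR-223 and miR-222, and the median over all tested assays was -0.05. Every ligated artery exceeded the untreated artery of the same number (6 of 6), by 0.80 to 2.86. The difference was 2.09 within numbers 1 to 3 (adjusted p = 0.193 in limma), 1.21 in numbers 4 to 6 (adjusted p = 0.0105 in limma), and the interaction of group and set did not pass the test (-0.88 ± 0.61 SE; limma, adjusted p = 0.741).
The call depended on the scaling and on 1 artery. Scaled to U6 and snoRNA429, the pair of control RNAs behind the authors' deposited values, the change was 1.44 (limma, adjusted p = 0.0928), and only 10 of all assays were then called against 42. Among the references only Y1 was near level between the groups: the mean Ct of the 283 miRNAs was lower in ligated than in untreated arteries by 0.99, and that of the control RNAs of the main run by 1.52 for snoRNA135, 1.30 for U6, 1.08 for snoRNA429, 0.85 for U87, 0.77 for snoRNA202 and 0.08 for Y1. With untreated 4 left out and the filter and reference miRNAs chosen again, it was 1.60 (limma, adjusted p = 0.0507).

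miR-146b, the guide strand transcribed from Mir146b, was blank in the main run. In the separate run its Ct was 22.2, 21.3, 20.7, 20.5, 20.5 and 20.5 in ligated arteries 1 to 6, against 25.9, 24.3, 24.7, 25.8, 24.8 and 24.8 in untreated arteries. Its log2 levels relative to the 4 control RNAs of that run (snoRNA135, snoRNA202, snoRNA429 and U6) were -2.14, -1.60, -0.77, -0.55, -0.45 and -0.31 in ligated arteries, and -3.50, -4.04, -3.80, -3.94, -3.83 and -3.62 in untreated arteries. Here ligated 1 and 2 were the lowest of their group and ligated 4 to 6 lay close together, while the untreated arteries spanned a narrow range. The mean was -0.97 ± 0.73 in ligated and -3.79 ± 0.20 in untreated arteries (SD, n = 6 each). The difference of 2.82 ± 0.31 (SE) gave an exact two-sided permutation p of 0.00216, the smallest that 6 against 6 allow, and 0.00289 after adjustment over the 4 miRNAs of the run. It was higher in 6 of 6 same-numbered arteries, by 1.36 to 3.39. The difference was 2.27 within numbers 1 to 3 (exact permutation, adjusted p = 0.133) and 3.36 within numbers 4 to 6 (exact permutation, adjusted p = 0.100), and with 3 against 3 the p cannot go below 0.100. Whether the sets differ in this was not tested.
The Ct of the control RNAs in the separate run was also lower in ligated than in untreated arteries by 0.88 for U6, 1.11 for snoRNA202, 1.54 for snoRNA135 and 1.56 for snoRNA429. With a single control RNA the difference of miR-146b was 2.53 with snoRNA429 and 3.21 with U6, and relative to the other 3 miRNAs of the run it was 3.10, each at an exact permutation p of 0.00216 before adjustment.

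The other miRNAs of that run were not chosen at random, since they are those the main run left blank, so its background is a description: 2 of 4 were called higher (50.0%) and 1 of 4, miR-146b, had no overlap in that direction (25.0%). miR-10a, which restrains NF-kB activation in endothelial cells, was 0.42 ± 0.14 (SE) higher in ligated arteries (exact permutation, adjusted p = 0.0216), with overlapping groups and a higher value in 5 of 6 same-numbered arteries. Its adjusted p was 0.0625 in the paired sign-flip test. miR-100 and miR-99a, relatives in a family that targets growth signalling, were lower in ligated arteries by 0.60 and 0.67 on the log2 scale (exact permutation, adjusted p = 0.00289 for each), but unscaled Ct values put them higher in ligated arteries, by 0.68 and 0.60.

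miR-146b*, the passenger strand of the same hairpin, had Ct values of 27.6, 27.8, 26.8, 26.9, 27.3 and 27.2 in ligated arteries 1 to 6. Among untreated arteries it gave 30.6 in untreated 3 and 31.0 in untreated 5, and the other 4 were listed at 40. The ligated arteries thus lay within about 1 cycle of each other and below both amplified untreated arteries. Detection in 6 of 6 ligated against 2 of 6 untreated arteries missed the threshold (Fisher's exact test, two-sided, p = 0.0606) and was the same with detection limits of 32 and 38. Such a pattern, 6 ligated and at most 2 untreated arteries, occurred in 4 of 513 assays (0.78%): miR-146b*, miR-147, miR-467d and miR-488, the last 2 named after their values were seen.
Its log2 levels were -4.22, -3.61, -2.75, -1.65, -2.23 and -2.16 in ligated arteries, with a mean of -2.77 ± 0.97 (SD, n = 6). In untreated arteries they were -5.53 in untreated 3 and -5.36 in untreated 5, and at most -10.0, -10.5, -8.57 and -8.84 in untreated 1, 2, 4 and 6, which stand at the detection limit. With those wells at the limit, the untreated mean was -8.15 ± 2.22 (SD, n = 6) and the log2 fold change 5.37 ± 0.92 (SE; 95% confidence interval 3.38 to 7.37; limma, adjusted p = 0.00533), which ranked 2 of 339, between miR-501-3p and miR-467d. miR-146b* passed the filter, detection in at least 4 of 6 samples of either group, only through its ligated arteries. Its p and rank therefore describe an assay that detection in that group had selected. The rank and size rest on the value given to wells without amplification, since the change was 2.67 with them left out (limma, adjusted p = 0.0357, on the 2 untreated arteries that amplified) and 8.71 with them kept at 40. It was higher in 6 of 6 same-numbered arteries. The difference was 5.17 within numbers 1 to 3 (adjusted p = 0.193 in limma) and 5.58 in numbers 4 to 6 (adjusted p = 0.0105 in limma), with an interaction of 0.41 (limma, adjusted p = 0.943). Of 77 starred assays tested, 4 were higher and 4 lower in ligated arteries, with miR-146b* among the higher ones.

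**Figure D1:**
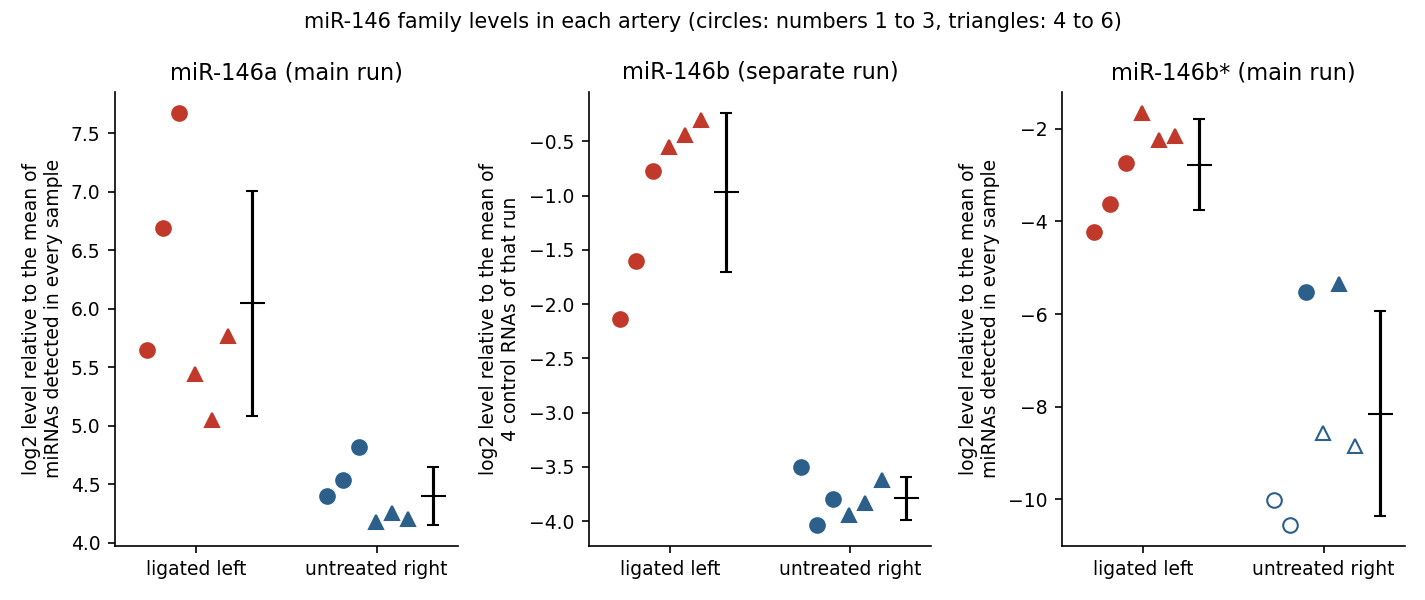
Log2 levels of the 3 strands in each artery, ligated left of untreated; each point is 1 sample, circles are numbers 1 to 3 and triangles numbers 4 to 6, open symbols are undetected wells at the detection limit, and bars give the mean and SD. Ligated and untreated samples do not overlap for any of the strands, and 4 of the 6 untreated miR-146b* points are undetected.

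**Figure D2:**
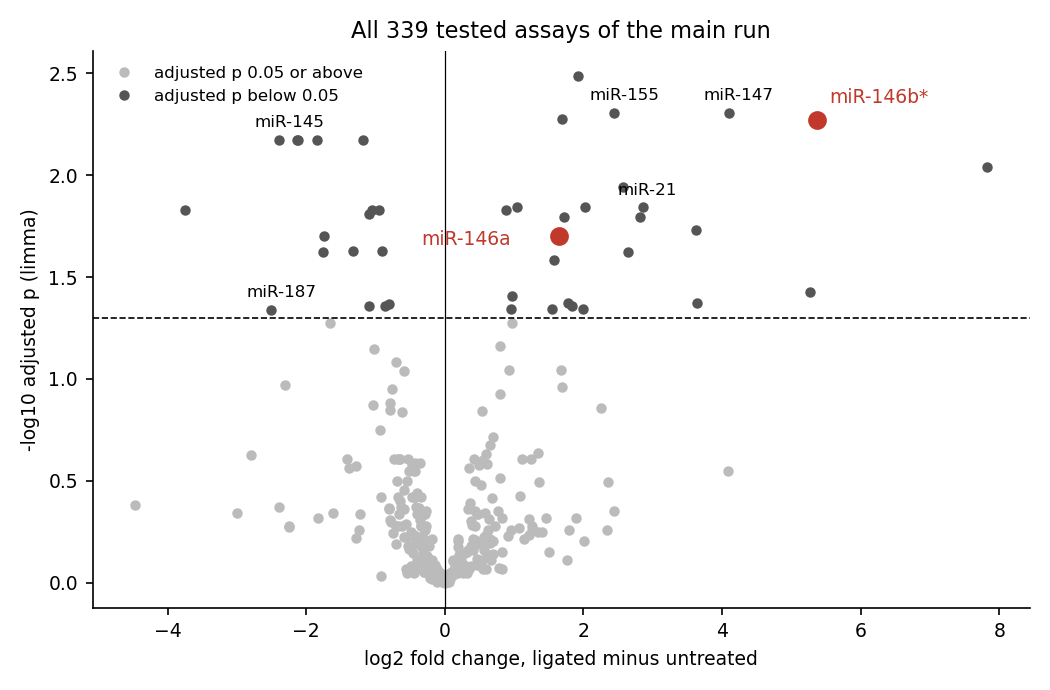
Log2 fold change, ligated minus untreated (x axis), against minus log10 of the limma adjusted p (y axis) for all 339 tested assays of the main run; the dashed line is the threshold of 0.05. miR-146a at 1.65 and miR-146b* at 5.37 lie above it, and miR-146b is not shown because it was measured in the separate run.

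Since miR-146a and miR-146b share a seed, their changes were set against each other. For this, each was scaled to the same 4 control RNAs in its own run, and the level of miR-146a was subtracted from that of miR-146b in each artery. The gap between 2 assays also holds their unequal PCR efficiencies, so only its change between arteries is read. That change crosses 2 runs whose control RNAs did not move together. Their mean Ct was 16.0 to 18.2 in the main and 19.7 to 20.2 in the separate run for ligated arteries. For untreated arteries it was 17.3 to 19.6 and 20.2 to 22.4, in this order. The part of the runs in the change was not tested. The gap was -0.48, -0.58, -0.94, 1.11, 1.32 and 0.78 in ligated arteries 1 to 6. In untreated arteries it was -0.53, -1.38, -1.40, -1.23, -1.52 and -0.85. Ligated 1 to 3 lay among or just above the untreated arteries and ligated 4 to 6 lay above all of them. The mean was 0.20 ± 0.98 in ligated and -1.15 ± 0.39 in untreated arteries (SD, n = 6 each), a difference of 1.35 ± 0.43 (SE; exact permutation p = 0.0130, two-sided, and 0.0260 after adjustment over the 2 comparisons between strands), with the higher gap in the ligated artery in 6 of 6 same-numbered pairs. In the paired sign-flip test its p was 0.03125, the smallest that 6 pairs allow, and 0.0625 after adjustment over the 2 comparisons. It could not pass there unless the other comparison passed too, so that test does not decide whether pairing weakens the difference. On this scale miR-146a alone differed by 1.47 ± 0.31 (SE; exact permutation p = 0.00216). The gap differed by 0.44 within numbers 1 to 3 (exact permutation, adjusted p = 0.400) and by 2.27 within numbers 4 to 6 (exact permutation, adjusted p = 0.200), where 3 against 3 cannot pass, and whether the sets differ was not tested. With snoRNA429 alone the difference was 0.98 (exact permutation, adjusted p = 0.0476), with unscaled Ct 1.46 (exact permutation, adjusted p = 0.128), and without untreated 2 or untreated 4 it was 1.31 or 1.34 (exact permutation, adjusted p = 0.0649 for each).

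The 2 strands of the Mir146b hairpin were compared in the same way. miR-146b* minus miR-146b was -9.39, -9.72, -9.48, -8.20, -8.60 and -8.70 in ligated arteries, a mean of -9.02 ± 0.60 (SD, n = 6). In untreated arteries it was -8.95 in untreated 3 and -8.09 in untreated 5, and at most -13.9, -13.7, -11.5 and -12.2 in the 4 others, where the passenger strand was undetected. The 2 untreated arteries with a measured passenger strand therefore had a gap like that of the ligated arteries. The other 4 had a lower gap only if their undetected wells were not failed reactions, which was not tested. With undetected wells at the limit the difference was 2.37 ± 1.02 (SE; exact permutation p = 0.0519, two-sided, adjusted 0.0519), higher in the ligated artery in 4 of 6 same-numbered pairs. The difference passed the threshold without untreated 3 (2.86; exact permutation, adjusted p = 0.0325) and without untreated 5 (3.04; exact permutation, adjusted p = 0.0173), the 2 untreated arteries with a measured passenger strand.

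**Figure D3:**
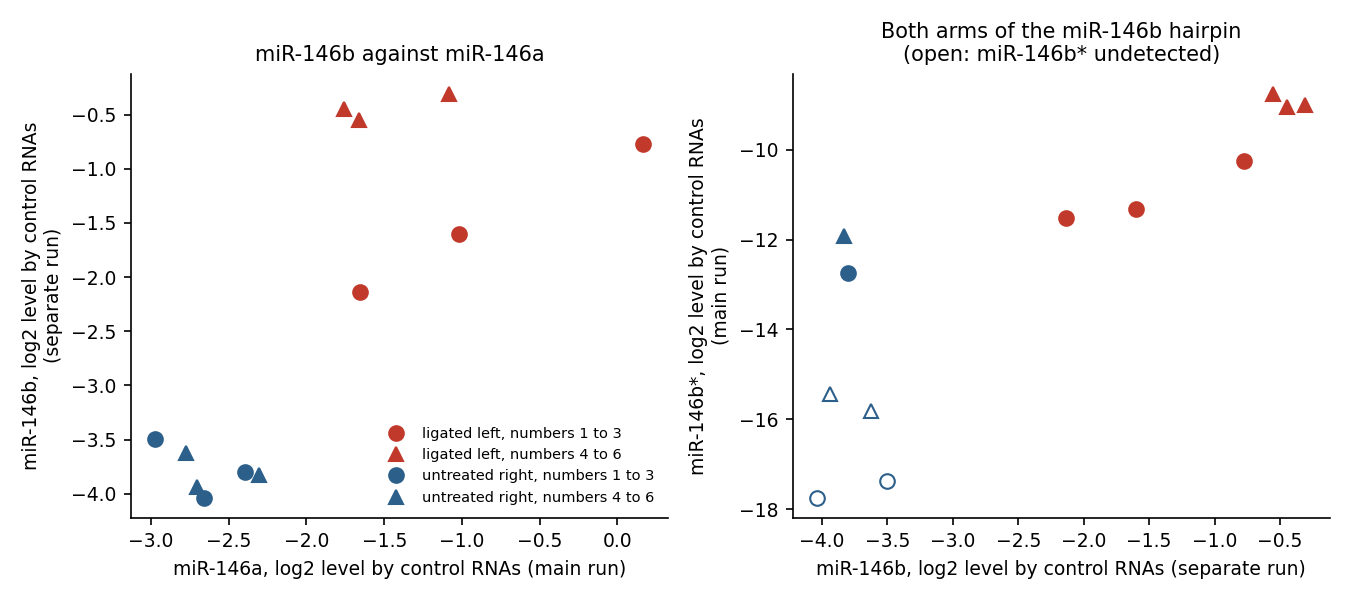
Levels of 2 strands in the same artery, both relative to the same 4 control RNAs: miR-146b (y axis) against miR-146a (x axis) on the left, and miR-146b* (y axis) against miR-146b (x axis) on the right; ligated samples are red, untreated samples blue, circles numbers 1 to 3, triangles numbers 4 to 6 and open symbols undetected. The ligated arteries fall into 2 places by set in the left panel, and the passenger strand lies along the guide strand among ligated arteries in the right panel.

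Within the ligated group the strands did not vary in step with each other in all cases. Across the 6 ligated arteries miR-146b* followed miR-146b (Pearson r = 0.94, Spearman rho = 0.83), whereas miR-146a had r = 0.10 with miR-146b (rho = -0.31) and r = -0.20 with miR-146b* (rho = -0.37). Across the 6 untreated arteries miR-146a and miR-146b had r = -0.49 (rho = -0.54), and the values with miR-146b*, r = 0.87 for miR-146a (rho = 0.66) and r = -0.09 for miR-146b (rho = 0.03), rest on 4 undetected wells. These are descriptions: the points share the 2 sets, and strands read in one run share its scaling.

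The assays whose levels followed miR-146a most closely over the 12 arteries, among 337 compared, were miR-342-3p (Pearson r = 0.94), miR-222 (0.93), miR-125a-5p (0.91), miR-511 (0.91) and miR-223 (0.90). Those nearest miR-146b were miR-467a (0.95), miR-142-5p (0.93), miR-147 (0.92), miR-340-5p (0.92) and miR-21* (0.90). The 2 lists shared no assay, but they were not built on like scales. miR-146a and the compared assays share the main run and its scaling. miR-146b was read in the separate run and scaled to that run's control RNAs. Whether run and scaling account for the contrast between the lists was not tested. All 5 nearest miR-146b were called higher in ligated arteries, against miR-342-3p and miR-222 of the 5 nearest miR-146a. Such likeness includes the difference between the groups. On deviations from the group means, the nearest to miR-146a were miR-188-5p (0.94), miR-24 (0.94), miR-484 (0.94), miR-511 (0.92) and miR-574-3p (0.91), and the nearest to miR-146b were miR-467a (0.81), let-7c (0.77), miR-29a (0.76), miR-674 (0.76) and miR-685 (0.74).

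Other miRNAs known to be induced through NF-kB or Toll-like receptors were read from a list of 10, all tested, of which 3 were higher, 1 was lower and 6 were not called, beside 12.4% called among all tested assays. The list's median change was 0.22, against -0.05 over all tested assays. miR-155, which is induced in activated macrophages, rose by 2.44 ± 0.38 (SE; limma, adjusted p = 0.00494), with no overlap between groups. miR-21, a miRNA of wound and growth responses in many tissues, gained 2.86 ± 0.62 (SE; limma, adjusted p = 0.0144), again with no overlap. miR-147, which Toll-like receptor signalling induces in macrophages, rose by 4.10 ± 0.66 (SE; limma, adjusted p = 0.00494) and was detected in 6 of 6 ligated and 1 of 6 untreated arteries, so that its size also depends on undetected wells: it was 2.22 with them left out, when a single untreated artery remained, and 1.48 with a detection limit of 32 (limma, adjusted p = 0.109). Like miR-146b*, miR-147 passed the filter only through the ligated arteries.
miR-187, induced by interleukin-10 in human monocytes, was the member that fell, by 2.50 ± 0.74 on the log2 scale (SE; limma, adjusted p = 0.0458). That call was lost without any 1 of 10 arteries (all 6 untreated ones and ligated 1, 4, 5 and 6, adjusted p up to 0.103). The 6 others, miR-9, miR-9*, miR-125a-5p, miR-99b, let-7e and miR-132, had changes of -0.67 to 0.65. miR-132 changed by 0.65 (limma, adjusted p = 0.210, or 0.0321 once replicate number was a block). Scaled to U6 and snoRNA429, miR-155, miR-21 and miR-147 were no longer called (limma, adjusted p = 0.165, 0.335 and 0.0917).

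miRNAs known to act on NF-kB signalling or on its targets in endothelium were read from a list of 7, of which 5 were tested in the main run, 1 (miR-10a) in the separate run, and no assay bore the name miR-181b. None of the 5 was called, with a median of 0.36 and a range of 0.00 to 1.67. miR-223, a myeloid miRNA, had the highest value, 1.67 ± 0.57 (SE; limma, adjusted p = 0.0905, and 0.00768 with the replicate block). let-7i, which targets a Toll-like receptor, had 0.76 ± 0.51 (SE; limma, adjusted p = 0.442, and 0.0420 with the block). With the block, 2 of these 5 and 5 of the 10 in the induced list were called, while over all assays 30 were higher and 22 lower. miR-15a, miR-16 and miR-126-3p had 0.36, 0.12 and 0.00.

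**Figure D4:**
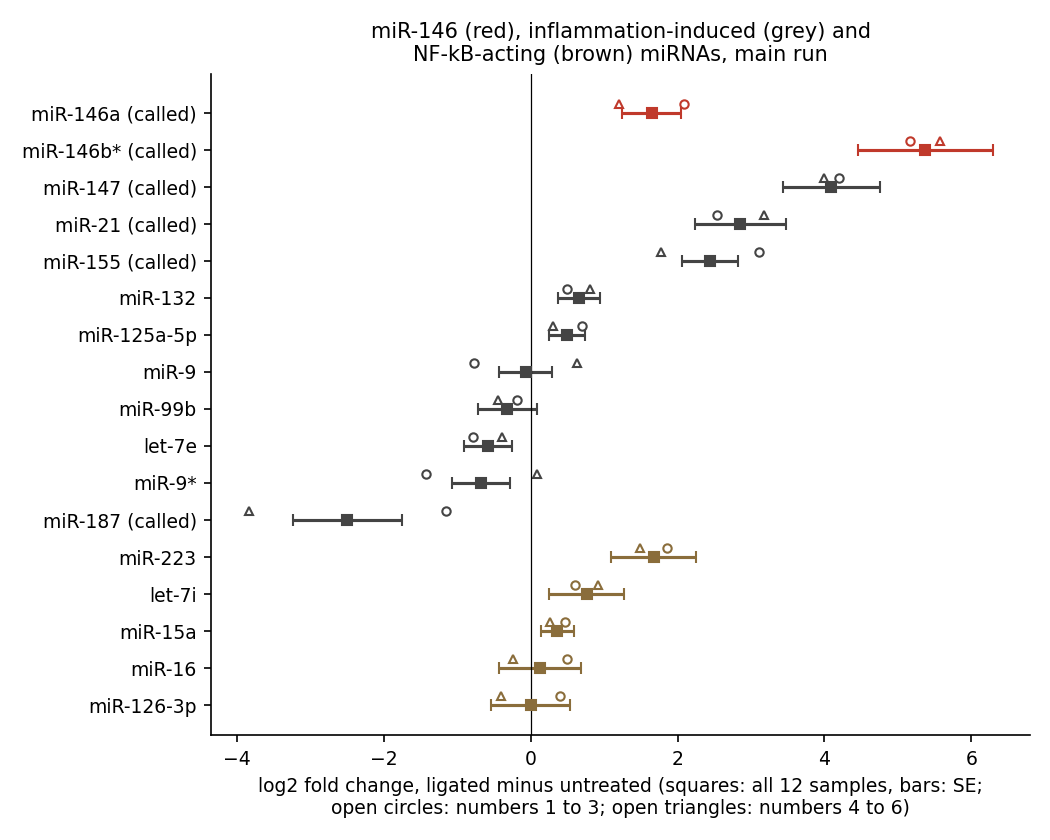
Log2 fold change, ligated minus untreated, with its SE for the assays of the main run: miR-146a and miR-146b* (red) and the members of both NF-kB lists (grey, induced; brown, acting on the pathway); squares are all 12 samples, open circles numbers 1 to 3 and open triangles numbers 4 to 6. miR-146a, miR-146b*, miR-155, miR-21 and miR-147 lie to the right of 0 and are called, and miR-187 is the called member to the left.

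Whole arteries do not tell more cells of a type from more RNA per cell, so markers of the cell types that the samples could hold are given beside these results. Of 5 leukocyte miRNAs tested, 3 were higher in ligated arteries, with a median change of 1.77. Over all 339 tested assays, 25 were higher and 17 lower. The sum of the levels of all 5, each relative to the reference mean on a linear scale, was 112 to 424 in ligated arteries and 53.9 to 106 in untreated arteries. Not called were miR-223 (1.67; limma, adjusted p = 0.0905) and miR-150 (0.46; limma, adjusted p = 0.461). miR-150 changed by 1.04 within numbers 1 to 3 and by -0.11 within numbers 4 to 6. miR-142-5p rose by 1.92 (limma, adjusted p = 0.00326), miR-142-3p by 1.77 (limma, adjusted p = 0.0425) and miR-342-3p by 1.99 (limma, adjusted p = 0.0453), but the call of miR-142-3p was lost without any 1 of 8 arteries (untreated 1, 2, 3, 4 and 6 and ligated 4, 5 and 6) and that of miR-342-3p without any 1 of 10 (all but untreated 2 and ligated 5). miR-342-3p was also the assay nearest miR-146a, and miR-142-5p the second nearest miR-146b. Of 4 muscle miRNAs, listed as smooth muscle markers, 3 were lower in ligated arteries, with a median of -1.93 for the list. The summed levels of all 4 were 360 to 973 in ligated and 949 to 5618 in untreated arteries. Whether miR-1 and miR-133a came from smooth muscle was not tested. The uncalled member was miR-133a (-1.23; limma, adjusted p = 0.461). Of the 3 called, miR-145 fell by 2.39, miR-143 fell by 2.12 and miR-1 fell by 1.75 on the log2 scale (limma, adjusted p = 0.00669, 0.00669 and 0.0238, in this order). The call of miR-1 was lost without any 1 of 6 arteries (untreated 1, 3, 4 and 5 and ligated 2 and 4), and those of miR-143 and miR-145 were not lost without any 1 artery. Unscaled, none of these 3 was called (limma, adjusted p = 0.0884 for miR-143, 0.0716 for miR-145 and 0.352 for miR-1). Scaled to U6 and snoRNA429, miR-342-3p was still called (limma, adjusted p = 0.0231), whereas miR-142-5p, miR-142-3p, miR-143, miR-145 and miR-1 were not (limma, adjusted p = 0.335, 0.658, 0.165, 0.101 and 0.274).
The endothelial pair was not called (median -0.13, summed levels of 85.4 to 581 in ligated and 114 to 324 in untreated arteries). Nerve markers (median 0.58, 3.51 to 10.8 in ligated and 4.08 to 13.0 in untreated arteries) and mesenchyme markers (median 0.23, 17.0 to 43.7 in ligated and 13.4 to 35.5 in untreated arteries) were not called either. Of the red blood cell list only miR-451 was tested (-0.40, not called), with summed levels of 1.47 to 20.2 in ligated and 2.43 to 13.7 in untreated arteries. miR-486 was detected in too few samples to be tested, and no assay bore the name miR-144. The part of any cell type in the miR-146 result was not tested.

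**Figure D5:**
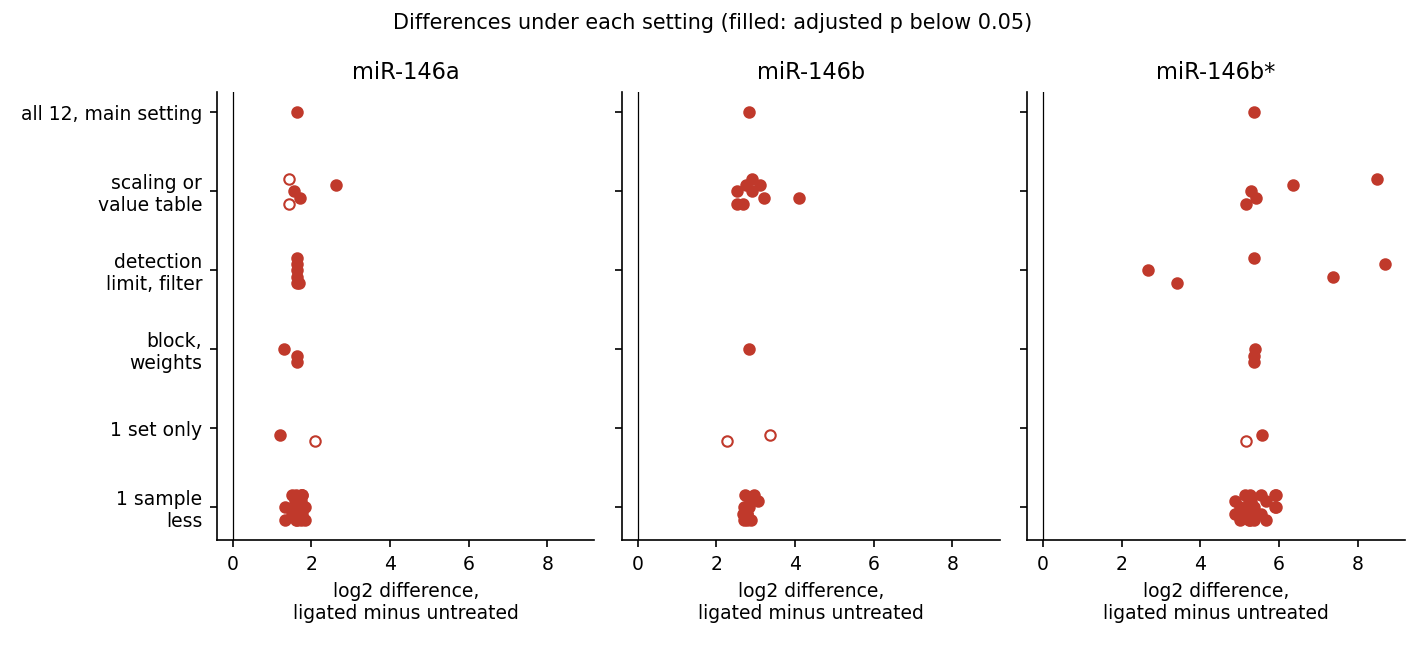
Difference, ligated minus untreated on the log2 scale, of each strand under each alternative of the processing; 1 point is 1 setting, filled where the adjusted p is below 0.05, and settings of a kind share a line with small vertical offsets. miR-146a lies between 1.21 and 2.63, miR-146b between 2.27 and 4.09 and miR-146b* between 2.67 and 8.71, and detection limits and filters do not apply to miR-146b.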

How the data were processed

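miRNAs in total RNA (mirVana kit, per the labels' protocols) were measured by quantitative PCR. The authors deposited raw Ct values of 513 miRNA assays and 6 control RNAs, a separate run of 4 miRNAs and 4 control RNAs, and a value table in which 513 assays match, within 0.001 cycles, the Ct less the average of U6 and snoRNA429. For the instrument, the thresholds and the separate run's method, details are not given in these sources.

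Detected meant a Ct below 35, and other wells were set to 35. Tests covered assays seen in 4 or more of 6 samples of either group, fitted with limma 3.58.1 (lmFit, eBayes; R 4.3.3), with Benjamini-Hochberg adjustment over all 339 and calls below 0.05. The separate run and the comparisons between strands used exact two-sided permutation over every arrangement of 6 against 6 (scipy 1.17.1). The code was tested on simulated data. A doubling per cycle was assumed, and whether an undetected well was a failed reaction was not tested. Depth does not apply to PCR values, whose precision is limited by 6 samples per group. The p-values of the main tests measure the spread between these arteries taken as independent samples, with no term for mouse or set. They do not measure the spread between mice of the difference between both arteries.

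The labels give numbers 1 to 6 in each group without tying arteries to a mouse. Deviations of same-numbered arteries from their group means correlated at r = 0.283 to 0.622, all above 0.1. On that basis the numbers served as pairs only in alternatives, the fit with the number as a block and the sign-flip test. They also served in counts of same-numbered arteries, while the main tests did not pair the samples. Same-numbered arteries also lie in the same set, and the sets stand apart. These correlations therefore cannot tell a shared mouse from a shared set, and whether same-numbered arteries came from the same mouse was not tested. The closest arteries, ligated 5 and 6, differed by 0.330 cycles on average over the 283 miRNAs detected throughout. The series text gives 6 mice, and both were kept as separate samples.

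The members, the lists and the sets of numbers 1 to 3 and 4 to 6 were chosen with earlier results of these data known. Named miRNAs are the 3 members, all of both NF-kB lists, the markers, the control RNAs, the assays of the separate run, the 5 assays nearest miR-146a and miR-146b, the neighbours in order of fold change, and exceptions marked in the text. Alternatives covered the scaling, detection limit, undetected wells, filter, blocks, sets, array weights and left-out samples. Chosen after seeing the data were a renewed filter and reference for each left-out sample, the use of ligated 5 and 6 as 1 sample and scaling of miR-146b to the other 3 miRNAs. Adjustment of both strand comparisons together, under each alternative, was also chosen then.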

Additional observations from a re-analysis of the deposited data

How the results depend on the processing

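The direction of all 3 strands held under every alternative run. miR-146a was no longer called when scaled to U6 and snoRNA429 (1.44), in the authors' deposited value table (1.44), within numbers 1 to 3 (2.09) and, without untreated 4 and with filter and reference chosen again, at 1.60. Leaving out 1 artery gave 1.32 to 1.85. miR-146b* lost its call within numbers 1 to 3 (5.17) and ranged from 4.89 to 5.93 without 1 artery. It has no value under the filter on assays detected in all 12 samples. miR-146b was not called within numbers 1 to 3 (2.27) or 4 to 6 (3.36), where 3 against 3 cannot pass, and ranged from 2.69 to 3.05 without 1 artery. The gap between the guide strands was not called within numbers 1 to 3 (0.44) or 4 to 6 (2.27) or unscaled (1.46), and ranged from 1.13 to 1.58 without 1 artery, losing its call without untreated 2 or untreated 4. The gap between the strands of Mir146b, not called at 2.37, was called with undetected wells at 40 (5.71), without untreated 3 (2.86) or without untreated 5 (3.04), and ranged from 1.88 to 3.04. Fewer samples enter the sets; for the other settings the cause was not tested. The count of calls was 42, 10 with U6 and snoRNA429 and 67 with the 2 sets as a block. Unscaled, miR-100 and miR-99a turned to 0.68 and 0.60. In the paired fits (replicate number as a block), miR-146a stayed at 1.65 (limma, adjusted p = 0.0142), miR-146b* at 5.37 (limma, adjusted p = 0.00677) and miR-146b at 2.82 (exact sign-flip, adjusted p = 0.0417), all still called. Under each of these settings, calls of miR-146b* describe an assay that passed the filter only through its ligated arteries. Its detection alone missed the threshold (Fisher's exact test, two-sided, p = 0.0606). The gap between the guide strands, 1.35, was not called (exact sign-flip, adjusted p = 0.0625), though its p before adjustment was the smallest that 6 pairs allow. The gap between the strands of Mir146b was called in neither the unpaired nor the paired test. With ligated 5 and 6 as 1 sample all 3 strands were still called. Wells listed at 40 limit how far miR-146b* can be sized.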
